A study of Mus musculus with 12 samples.

Results

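Ptpre, Inpp5d, Dapp1, Hvcn1, Myo1e and Spred1, 6 genes of signalling and cell movement in leukocytes, were followed here across the diets, out of 20358 genes with a value. Together they are measured by 116 of the 212138 probe sets that name exactly 1 gene, with 25 for Ptpre, 32 for Inpp5d, 10 for Dapp1, 8 for Hvcn1, 30 for Myo1e and 11 for Spred1. The 6 genes were chosen on measured values of these same arrays, from each additive diet against TFA, so every difference from TFA below is a description without a test. RNA was prepared from the visceral fat of male C57Bl/6J mice aged 20 weeks and hybridised to 12 Affymetrix gene arrays, 3 for each of 4 diets, with RNA of several mice pooled on each array. The diets were ASP+MSG+TFA (aspartame at 0.25 g/L and monosodium glutamate at 0.75 g/L in the drinking water), ASP+TFA (aspartame alone at 0.25 g/L), MSG+TFA (monosodium glutamate alone at 0.75 g/L) and the control diet TFA (plain water). All 4 groups ate the same food, with 20% w/w of a shortening that made trans fat 8.68% w/w of the diet, so no group was free of trans fat. Dams entered their diet aged 6 weeks and were mated 3 weeks later, and the male offspring stayed on it from weaning at 4 weeks. The replicates are pools, and their spread is that between pools and not between mice. Whole tissue was measured, so no value can be assigned to leukocytes or to any other cell type.

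Leukocytes read their surroundings through surface receptors whose signals run through tyrosine phosphorylation, the membrane lipid PIP3 and the Ras pathway. Fat tissue holds many macrophages and smaller numbers of lymphocytes, which such signals help to activate, to move and to engulf debris. Ptpre encodes the protein tyrosine phosphatase epsilon, made in a receptor form and in a cytosolic form. Inpp5d encodes SHIP1, a lipid phosphatase of blood cells that removes a phosphate from PIP3. Dapp1 (Bam32) is an adaptor that binds PIP3 downstream of the B cell receptor. Hvcn1 is a voltage-gated proton channel that moves acid out of phagocytes and B cells while they produce oxidants. Myo1e is a motor of the class I myosins that links membrane to actin, also in kidney podocytes, and Spred1 is an inhibitor of Ras signalling found in many cell types.

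In the RefSeq annotation of GRCm38.p6, Inpp5d lies on chromosome 1 (87620312 to 87720510), Spred1 on chromosome 2 (117121071 to 117182279), Dapp1 on chromosome 3 (137931007 to 137981549), Hvcn1 on chromosome 5 (122206805 to 122242297), Ptpre on chromosome 7 (135537824 to 135686294) and Myo1e on chromosome 9 (70207350 to 70400067). RefSeq windows of the 250 bases before annotated starts were used for the 6 genes other than Hvcn1, 7 windows in all with 3 for Ptpre. Windows of Inpp5d, Dapp1 and the Ptpre start farthest downstream are shown because they hold short motifs read by factors active in leukocytes. The capitals mark GAGGAA (a core bound by PU.1, a leading factor of macrophages and B cells), GGAAGT (a core bound by the ETS family to which PU.1 belongs) or TGANTCA (AP-1), on either strand. GAGGAA and GGAAGT overlap in the Inpp5d run of capitals.
Inpp5d, chr1:87620062-87620311, plus strand: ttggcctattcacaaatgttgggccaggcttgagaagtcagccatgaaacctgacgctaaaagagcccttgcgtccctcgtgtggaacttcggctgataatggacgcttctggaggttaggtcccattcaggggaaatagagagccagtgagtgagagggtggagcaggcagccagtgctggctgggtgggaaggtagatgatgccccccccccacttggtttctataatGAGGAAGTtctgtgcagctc
Dapp1, chr3:137981550-137981799, minus strand: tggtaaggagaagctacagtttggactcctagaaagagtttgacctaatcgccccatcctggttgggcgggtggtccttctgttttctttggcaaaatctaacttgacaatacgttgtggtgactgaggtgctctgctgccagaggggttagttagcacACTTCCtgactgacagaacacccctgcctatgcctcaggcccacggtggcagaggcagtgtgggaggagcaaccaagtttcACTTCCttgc
Ptpre, chr7:135605578-135605827, plus strand: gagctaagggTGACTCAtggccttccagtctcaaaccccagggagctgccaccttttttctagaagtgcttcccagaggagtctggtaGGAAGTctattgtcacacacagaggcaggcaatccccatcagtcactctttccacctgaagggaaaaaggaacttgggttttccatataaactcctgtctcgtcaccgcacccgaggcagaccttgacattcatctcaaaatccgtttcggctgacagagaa

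The Inpp5d window carried both cores within the last 20 bases before the start. In Dapp1, GGAAGT was found on the other strand at 2 places, of which the nearer began 10 bases before the start. This Ptpre window held GGAAGT and TGANTCA, and another Ptpre window held GAGGAA. No match was found in the windows of Myo1e, Spred1 and the most upstream Ptpre start. Such letters are common: GAGGAA occurred in 23.3% of the 32851 windows of the same length over all genes, GGAAGT in 19.7% and TGANTCA in 6.75%. A match is a description of the letters and not a site of binding.

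Values are log2 of the deposited intensity, and each gene is summarised on an array by the median over its probe sets. The tissue label held, since the adipocyte markers Adipoq, a hormone of fat cells, and Fabp4, their fatty acid carrier, averaged 13.2 and 14.1 over the 12 arrays. The median of 1171 smell receptor genes, which stand for genes with little signal in fat, was 6.40 to 6.76 on TFA 1 and 2 and MSG+TFA 1 and 2 and 5.44 to 5.66 on the other 8 arrays. These 4 are called raised arrays, and no array of the aspartame diets was among them. The 90th percentile of the receptor genes' means, 6.60 for gene values and 6.71 for probe sets, is used as the dim limit, under which signal and background could not be separated. Epididymis markers averaged under that limit on 1 array of each diet (ASP+MSG+TFA 3, ASP+TFA 3, MSG+TFA 2 and TFA 2) and between 8.10 and 12.6 on the other 8. Fewer leukocytes and less RNA per leukocyte cannot be told apart in such pools.

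All 6 genes averaged higher in each of the 3 additive diets than in TFA. The differences ran between 0.67 and 1.47 in ASP+MSG+TFA, between 0.77 and 1.77 in ASP+TFA and between 0.41 and 0.90 in MSG+TFA. Inpp5d had the largest difference in ASP+TFA and MSG+TFA and was level with Myo1e at 1.47 in ASP+MSG+TFA. All 3 arrays lay above all 3 TFA arrays for 6 of 6 genes in ASP+MSG+TFA, where 13.7% of all genes did the same, for 6 of 6 in ASP+TFA (7.17% of all genes) and for 5 of 6 in MSG+TFA (2.06% of all genes). In all 3 diets at the same time this held for 5 of 6, and for 0.752% of all genes. Since the genes were picked on these contrasts, nothing is read from their counts against those shares.

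**Figure D1:**
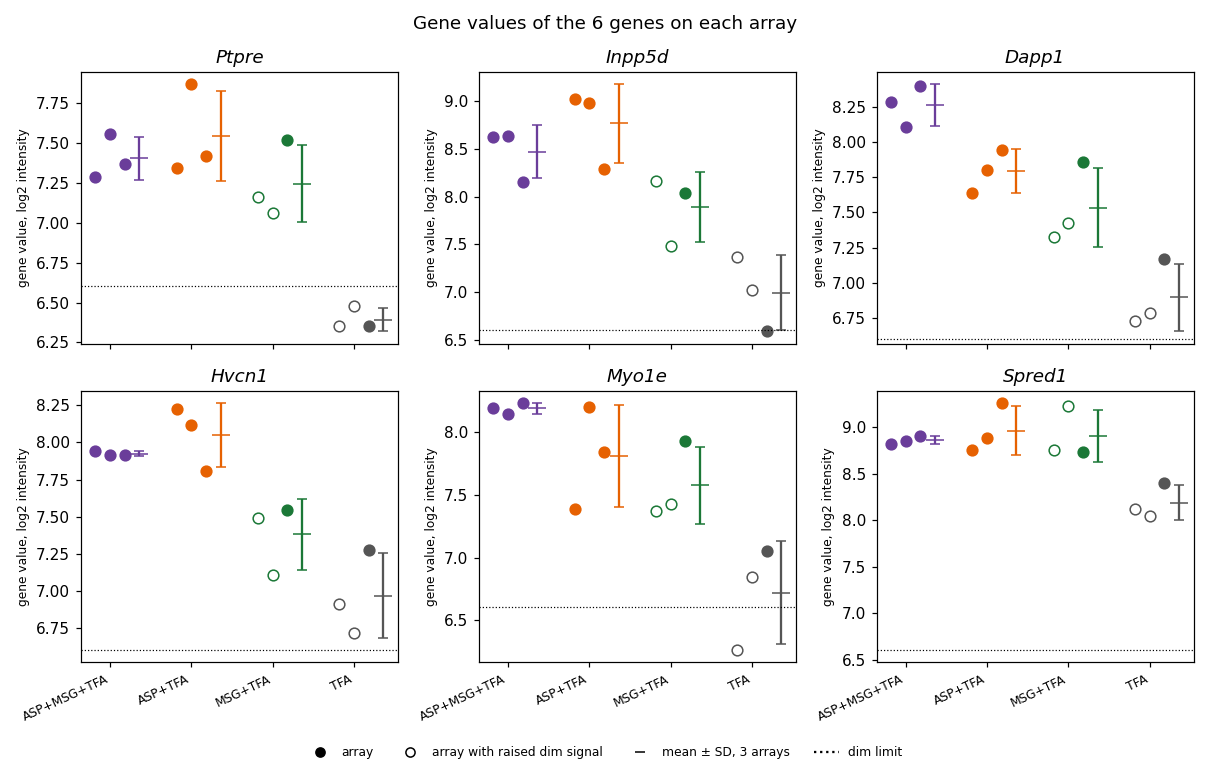
Gene value (log2 intensity, vertical axis) of the 6 genes on each of the 12 arrays, by diet. Points are arrays, open where dim signal was raised, bars are the mean and SD of 3 arrays, and the dotted line is the dim limit of 6.60. The TFA arrays lie lowest in each panel, and only Hvcn1 has an MSG+TFA array among them.

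The phosphatase Ptpre had gene values of 7.29, 7.56 and 7.37 in ASP+MSG+TFA, 7.35, 7.87 and 7.42 in ASP+TFA and 7.16, 7.06 and 7.52 in MSG+TFA, against 6.35, 6.48 and 6.35 in TFA. The 9 arrays of additive diets all lay above the 3 TFA arrays, which were close together and all under the dim limit. The mean difference was 1.01 ± 0.17 in ASP+MSG+TFA (SE of the fit, n = 3 arrays per diet), 1.15 ± 0.17 in ASP+TFA and 0.85 ± 0.17 in MSG+TFA, or 2.02-fold, 2.22-fold and 1.81-fold. The TFA level lay in the range of background, which leaves these sizes uncertain. The 25 probe sets did not move as a block. Over all probe sets, 16.2%, 10.1% and 2.71% had all 3 arrays above TFA in ASP+MSG+TFA, ASP+TFA and MSG+TFA, and 0.984% in all 3 diets. These shares also stand beside the counts of the genes below. Of the 25 Ptpre probe sets 11, 11 and 9 had all 3 arrays above TFA in the same order, and 8 did so in all 3 diets. Probe set 10558425 is an example, with 8.77, 9.15 and 9.01 in ASP+MSG+TFA, 9.08, 9.05 and 8.73 in ASP+TFA and 8.37, 8.24 and 8.62 in MSG+TFA, against 7.66, 7.56 and 7.53 in TFA. Its diets were clear of TFA, and its TFA level was above the dim limit. The brightest Ptpre probe set, 10558424, showed almost none of this, with 8.82, 8.80 and 8.72 in ASP+MSG+TFA, 8.72, 8.90 and 8.48 in ASP+TFA and 8.73, 8.31 and 8.79 in MSG+TFA, against 8.61, 8.63 and 8.54 in TFA. There the differences were 0.19, 0.11 and 0.02 in the same order of diets. Another 4 Ptpre probe sets averaged lower than TFA in all 3 diets, among them 10558426 with differences of -1.21, -0.47 and -0.46. On 10558426 the raised arrays TFA 1 and 2 had 8.86 and 8.96, against 7.53 on TFA 3. The median over probe sets of the single differences was 0.52, 0.60 and 0.48, well under the difference of the gene medians. The single differences had a median under that of the gene value for each of the 6 genes in all 3 diets. For Inpp5d it was 1.15, 1.09 and 0.57 and for Hvcn1 0.53, 0.67 and 0.35.

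Inpp5d, which encodes the PIP3 phosphatase SHIP1, had gene values of 8.62, 8.64 and 8.15 in ASP+MSG+TFA, 9.02, 8.98 and 8.29 in ASP+TFA and 8.16, 7.48 and 8.04 in MSG+TFA, against 7.37, 7.03 and 6.59 in TFA. All 9 arrays of additive diets exceeded the TFA arrays, though MSG+TFA 2 was only slightly above TFA 1. The mean difference was 1.47 ± 0.27 in ASP+MSG+TFA (2.77-fold), 1.77 ± 0.27 in ASP+TFA (3.40-fold) and 0.90 ± 0.27 in MSG+TFA (1.86-fold). Its probe sets spread more widely than those of the other genes. Single differences ran from -1.77 to 3.13 in ASP+MSG+TFA, from -2.05 to 3.80 in ASP+TFA and from -0.24 to 2.07 in MSG+TFA. The largest belonged to probe set 10348267, with 9.18, 9.44 and 8.16 in ASP+MSG+TFA, 10.30, 10.33 and 8.17 in ASP+TFA and 9.54, 5.87 and 8.19 in MSG+TFA, against 7.27, 4.83 and 5.30 in TFA. Arrays of the same diet differed there by up to several log2 units, and MSG+TFA 2 lay inside the TFA range. The brightest probe set, 10348273, overlapped TFA in each diet, with 10.63, 11.06 and 10.14 in ASP+MSG+TFA, 11.59, 11.65 and 10.11 in ASP+TFA and 11.07, 10.46 and 10.28 in MSG+TFA, against 10.60, 10.36 and 9.85 in TFA. In the opposite direction, probe set 10348250 had 4.88, 6.28 and 5.00 in ASP+MSG+TFA, 4.68, 5.07 and 5.59 in ASP+TFA and 7.87, 8.77 and 6.25 in MSG+TFA, against 7.93, 8.09 and 5.47 in TFA. Its 4 highest values were those of the raised arrays. Of the 32 probe sets, 17, 14 and 2 had all arrays of a diet above TFA (53.1%, 43.8% and 6.25%, beside 16.2%, 10.1% and 2.71% of all probe sets). Only 1 had so in all 3 diets (0.984% of all probe sets did), although 27 averaged higher in all 3.

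Inpp5d was also set beside the epididymis markers within diets, where single probe sets went in opposite directions. Its gene value was the lowest of 3 on the array low in those markers in 3 of 4 diets, TFA being the exception. The 10 marker genes summed to an intensity of 440.8 to 55343 over the arrays of ASP+MSG+TFA, 683.2 to 72209 in ASP+TFA and 580.8 to 74382 in MSG+TFA, against 640.7 to 50016 in TFA, so each diet held low and high arrays, and no marker of the list was listed at 0. Of the 32 probe sets, the low array was the lowest of its diet for 15 in ASP+MSG+TFA, 15 in ASP+TFA, 10 in MSG+TFA and 9 in TFA. Over all probe sets the same held for 30.1%, 33.7%, 26.5% and 31.4%. The Inpp5d counts were near these shares in MSG+TFA and TFA and above them in the aspartame diets. Probe set 10348271 was lowest on the low array of each diet, as in ASP+TFA with 8.74, 8.84 and 6.65. Probe set 10348246 was instead highest on the low array of each diet, as in ASP+TFA with 9.84, 9.47 and 10.58. Among the other genes, the gene value was lowest on the low array in 4 diets for Hvcn1, 1 each for Ptpre and Spred1 and 0 for Dapp1 and Myo1e. No share of all genes was taken for these counts of diets, so nothing is read from them. With the 4 low arrays left out, a choice made after the data were seen, the Inpp5d differences from TFA were 1.64, 2.02 and 1.12 for ASP+MSG+TFA, ASP+TFA and MSG+TFA, somewhat larger than with all arrays.

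The adaptor Dapp1 had gene values of 8.28, 8.10 and 8.40 in ASP+MSG+TFA, 7.64, 7.80 and 7.94 in ASP+TFA and 7.33, 7.42 and 7.85 in MSG+TFA, against 6.73, 6.79 and 7.17 in TFA. The diets stood in that order by mean, and the ASP+MSG+TFA arrays lay above all other arrays. The mean difference was 1.36 ± 0.18 in ASP+MSG+TFA (2.58-fold), 0.90 ± 0.18 in ASP+TFA (1.86-fold) and 0.64 ± 0.18 in MSG+TFA (1.56-fold). All 10 probe sets averaged higher in each diet. In ASP+MSG+TFA 10 of 10 had all arrays above TFA, in ASP+TFA 7 and in MSG+TFA 2. The largest differences in both aspartame diets were those of probe set 10502363, which had 8.67, 8.08 and 8.83 in ASP+MSG+TFA, 7.80, 7.91 and 8.04 in ASP+TFA and 6.92, 7.05 and 7.43 in MSG+TFA, against 5.88, 6.20 and 7.03 in TFA. TFA 3 was the highest TFA array there and was not a raised array. The brightest probe set, 10502362, had smaller differences of 0.51, 0.47 and 0.13.

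The proton channel Hvcn1 had gene values of 7.94, 7.92 and 7.91 in ASP+MSG+TFA, 8.22, 8.11 and 7.81 in ASP+TFA and 7.49, 7.11 and 7.55 in MSG+TFA, against 6.92, 6.72 and 7.28 in TFA. The aspartame diets were clear of the TFA arrays, while MSG+TFA 2 fell below TFA 3. The mean difference was 0.95 ± 0.18 in ASP+MSG+TFA (1.94-fold), 1.08 ± 0.18 in ASP+TFA (2.11-fold) and 0.41 ± 0.18 in MSG+TFA (1.33-fold). This gene rested on few probe sets that disagreed. Probe set 10525369 had 7.91, 7.60 and 7.69 in ASP+MSG+TFA, 8.09, 8.29 and 7.54 in ASP+TFA and 7.21, 6.47 and 7.07 in MSG+TFA, against 6.45, 5.79 and 6.41 in TFA, with no overlap. The brightest, 10525370, had 9.08, 9.42 and 9.06 in ASP+MSG+TFA, 9.60, 9.31 and 8.56 in ASP+TFA and 9.59, 9.56 and 9.39 in MSG+TFA, against 9.56, 9.58 and 8.92 in TFA. Its differences of -0.16, -0.20 and 0.16 ran against the gene value in both aspartame diets. The raised arrays TFA 1 and 2 stood well above TFA 3 there, and TFA 3 lay under all 3 ASP+MSG+TFA arrays. Of the 8 probe sets 4, 3 and 3 lay above TFA on all arrays of ASP+MSG+TFA, ASP+TFA and MSG+TFA, and 2 did so in all 3 diets. The Hvcn1 gene value was also the lowest of its diet on the array low in epididymis markers in 4 of 4 diets, although the 3 ASP+MSG+TFA arrays hardly differed. Of its 8 probe sets, that array was lowest for 2 in ASP+MSG+TFA, 6 in ASP+TFA, 5 in MSG+TFA and 3 in TFA. The shares of all probe sets were 30.1%, 33.7%, 26.5% and 31.4%. Without those 4 arrays its differences from TFA were 0.83, 1.07 and 0.42 for ASP+MSG+TFA, ASP+TFA and MSG+TFA.

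The motor Myo1e had gene values of 8.19, 8.14 and 8.23 in ASP+MSG+TFA, 7.38, 8.20 and 7.84 in ASP+TFA and 7.37, 7.42 and 7.93 in MSG+TFA, against 6.26, 6.84 and 7.05 in TFA. ASP+MSG+TFA was tight, with an SD of 0.04 against 0.31 to 0.41 in the other diets. The mean difference was 1.47 ± 0.25 in ASP+MSG+TFA (2.76-fold), 1.09 ± 0.25 in ASP+TFA (2.13-fold) and 0.85 ± 0.25 in MSG+TFA (1.81-fold). Its 30 probe sets covered means from 4.38 to 9.82, and 21 of them were above the dim limit. Of the 30 probe sets 21, 16 and 10 had all arrays above TFA in ASP+MSG+TFA, ASP+TFA and MSG+TFA, and 6 had so in all 3. Probe set 10586801 had the largest differences, with 9.17, 9.00 and 8.87 in ASP+MSG+TFA, 8.84, 9.11 and 8.84 in ASP+TFA and 7.41, 7.39 and 8.92 in MSG+TFA, against 5.10, 6.21 and 7.40 in TFA. MSG+TFA 1 and 2 lay near TFA 3 there, while MSG+TFA 3 matched the aspartame diets. A bright probe set, 10586799, went the other way in the aspartame diets, with differences of -0.10, -0.42 and 0.34. Its highest values were those of the raised arrays.

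The Ras inhibitor Spred1 had gene values of 8.82, 8.85 and 8.90 in ASP+MSG+TFA, 8.75, 8.88 and 9.26 in ASP+TFA and 8.76, 9.23 and 8.73 in MSG+TFA, against 8.12, 8.04 and 8.40 in TFA. The additive diets were alike in their means and all clear of TFA. The mean difference was 0.67 ± 0.18 in ASP+MSG+TFA (1.59-fold), 0.77 ± 0.18 in ASP+TFA (1.71-fold) and 0.72 ± 0.18 in MSG+TFA (1.64-fold). The median over probe sets of the single differences was smaller, at 0.48, 0.57 and 0.29. All 11 probe sets averaged higher in each diet, 7, 9 and 2 of them without overlap. The brightest, 10474675, had 9.73, 9.67 and 9.68 in ASP+MSG+TFA, 9.50, 9.71 and 9.73 in ASP+TFA and 9.37, 9.84 and 9.44 in MSG+TFA, against 9.32, 9.18 and 9.36 in TFA. These differences of 0.41, 0.36 and 0.27 were smaller than those of the gene value, and the spread among MSG+TFA arrays reached close to TFA.

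The raised arrays fell only in TFA and MSG+TFA, so each difference was also taken without them, which left TFA 3 alone and MSG+TFA 3 alone and gives values with no check between pools. TFA 3 also carried seminal vesicle markers, which summed to an intensity of 48152 against 613.3 and 533.8 on TFA 1 and 2, and MSG+TFA 3 liver markers, at 8186 against 636.0 and 1468 on MSG+TFA 1 and 2. Inpp5d was then 1.87 in ASP+MSG+TFA, 2.17 in ASP+TFA and 1.45 in MSG+TFA above TFA, larger than with all arrays. Ptpre stayed close at 1.05, 1.19 and 1.17. Spred1 gave 0.45, 0.56 and 0.33, of which the MSG+TFA value was under the 0.72 of all arrays by more than 1.5 times. Hvcn1 gave 0.65, 0.77 and 0.27 and Dapp1 1.09, 0.62 and 0.68. For Myo1e the values were 1.13, 0.75 and 0.88. All 18 stayed above 0.

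**Figure D2:**
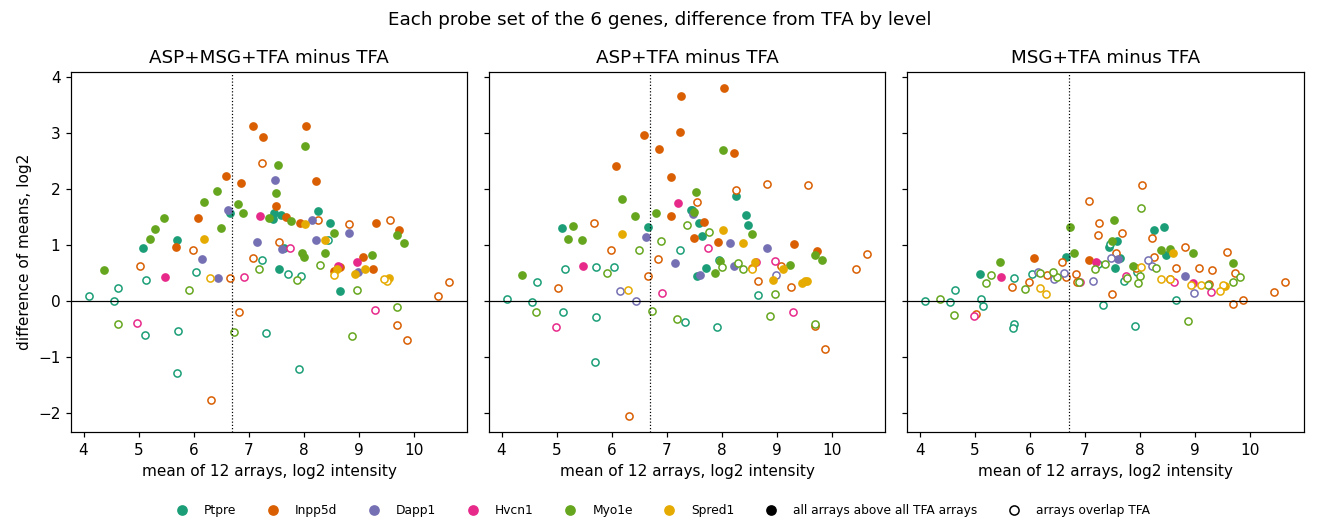
Difference of means from TFA (log2, vertical axis) of each of the 116 probe sets against its mean over 12 arrays (log2 intensity, horizontal axis), in a panel per additive diet. Filled points are probe sets with all 3 arrays above all 3 TFA arrays, and the dotted line is the dim limit of 6.71. Most points lie above 0 in each panel, with the largest differences of Inpp5d at middle levels and small ones at the bright end.

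Across the 116 probe sets, 101 averaged higher than TFA in ASP+MSG+TFA (54.1% of all probe sets did), 100 in ASP+TFA (53.4%) and 105 in MSG+TFA (50.7%). In all 3 diets 97 averaged higher and 8 lower, counts for which no share of all probe sets was taken. Non-overlap was found for 70 in ASP+MSG+TFA (16.2% of all probe sets), 60 in ASP+TFA (10.1%) and 28 in MSG+TFA (2.71%), and in all 3 diets for 21 (0.984%). The MSG+TFA count was the smallest and the least settled. Same-numbered MSG+TFA and TFA arrays deviated together, and when each array was set against the mean of its replicate number, a setting added after the data were seen, the count was 46 (5.51% of all probe sets). The MSG+TFA minus TFA difference of same-numbered arrays was above 0 in 3 of 3 pairs for each of the 6 genes. As the genes were chosen on this contrast, nothing is read from that. A count of this kind can only stay or grow when an array is left out, and it was 47 without TFA 3 (12.3% of all probe sets) and 52 without MSG+TFA 1 (9.48%). Above the dim limit, 52 of 82 probe sets were free of overlap in ASP+MSG+TFA, 47 in ASP+TFA and 23 in MSG+TFA, against 18, 13 and 5 of the 34 dimmer ones. Shares of all probe sets split at the dim limit were not taken, so nothing is read from this split. The median receptor probe set was itself lower than TFA by 0.75 in ASP+MSG+TFA, 0.68 in ASP+TFA and 0.11 in MSG+TFA. The median of all probe sets above the dim limit was higher than TFA by 0.13, 0.10 and 0.03, the same direction as the 6 genes. How far these shifts of the arrays bear on the 6 genes was not tested.

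**Figure D3:**
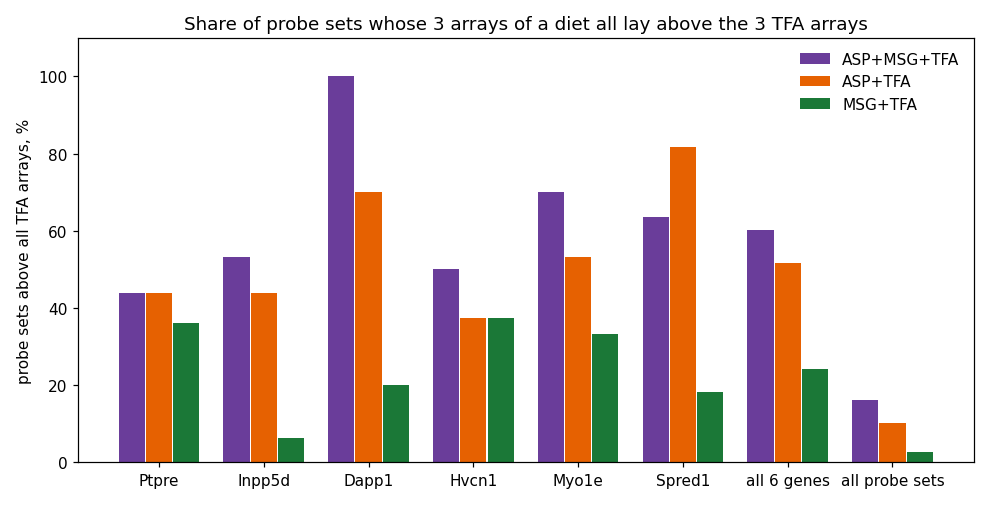
Share of probe sets (percent, vertical axis) with all 3 arrays of a diet above all 3 TFA arrays, for each gene, for the 6 genes together and for all 212138 probe sets. Bars stand for the 3 additive diets, and the 6 genes together reach 60.3% in ASP+MSG+TFA, 51.7% in ASP+TFA and 24.1% in MSG+TFA.

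The contrasts among the additive diets were not used to choose the genes, though their arrays were, and these 3 contrasts were tested (18 tests of the 6 genes, adjusted over all 20358 genes). A call needed a limma adjusted p under 0.05 and a change of 1.4-fold or more. None of the 6 genes met it, and 0 of all genes did in each contrast (0%). At an unadjusted p under 0.05 there were 322 genes for ASP+MSG+TFA against ASP+TFA, 3186 for ASP+MSG+TFA against MSG+TFA and 2507 for ASP+TFA against MSG+TFA. The analysis of variance named in the methods called 0 genes too, with 420, 2554 and 1977 at an unadjusted p under 0.05. Of the 6 genes 1, 3 and 2 were at an unadjusted p under 0.05 by limma in the same order.

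For ASP+MSG+TFA against ASP+TFA, only Dapp1 reached an unadjusted p under 0.05, with a difference of 0.47 (95% interval 0.07 to 0.86, limma adjusted p = 1.0). Ptpre differed by -0.14 (interval -0.52 to 0.24), Spred1 by -0.10 (-0.50 to 0.29) and Hvcn1 by -0.12 (-0.52 to 0.27), and these intervals hold differences of either sign. Inpp5d had -0.30 (-0.90 to 0.31) and Myo1e 0.38 (-0.18 to 0.93), with wider intervals, and all 5 had a limma adjusted p of 1.0.

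For ASP+MSG+TFA against MSG+TFA, Dapp1 had a difference of 0.73 (interval 0.33 to 1.12), Myo1e of 0.61 (0.06 to 1.17) and Hvcn1 of 0.54 (0.14 to 0.94), each with a limma adjusted p of 0.310. In these 3 of 6 genes each ASP+MSG+TFA array lay above all MSG+TFA arrays, as in 7.66% of all genes. Inpp5d had 0.57 (-0.03 to 1.18), Ptpre 0.16 (-0.22 to 0.54) and Spred1 -0.05 (-0.44 to 0.35), with limma adjusted p of 0.327, 0.631 and 0.905. For ASP+TFA against MSG+TFA, Inpp5d had 0.87 (0.27 to 1.47) and Hvcn1 0.67 (0.27 to 1.06), both with a limma adjusted p of 0.398. In these 2 of 6 genes each ASP+TFA array lay above all MSG+TFA arrays, as in 5.51% of all genes. Ptpre had 0.30 (-0.08 to 0.68), Dapp1 0.26 (-0.13 to 0.65), Myo1e 0.23 (-0.32 to 0.79) and Spred1 0.06 (-0.34 to 0.45), with limma adjusted p of 0.430 to 0.892. MSG+TFA held 2 raised arrays and the aspartame diets none. Without the raised arrays Dapp1 and Myo1e were -0.06 and -0.12 for ASP+TFA against MSG+TFA, and Ptpre -0.11 for ASP+MSG+TFA against MSG+TFA. For ASP+MSG+TFA against MSG+TFA Dapp1 was then 0.41, Myo1e 0.26, Hvcn1 0.38 and Inpp5d 0.43.

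**Figure D4:**
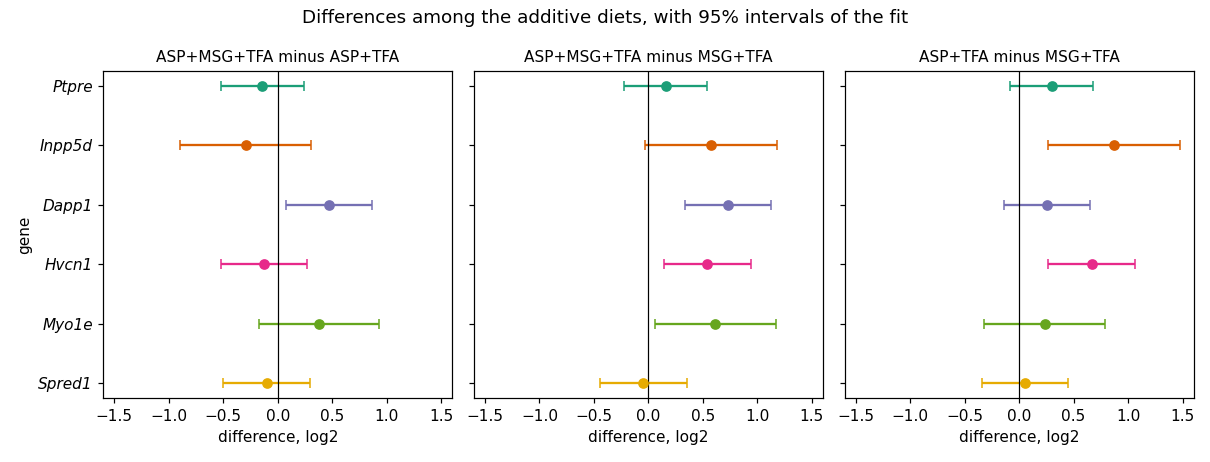
Differences (log2, horizontal axis) between additive diets for the 6 genes, with 95% intervals from the fit of all 12 arrays. The intervals of Dapp1, Hvcn1 and Myo1e lie above 0 for ASP+MSG+TFA minus MSG+TFA, those of Inpp5d and Hvcn1 for ASP+TFA minus MSG+TFA and that of Dapp1 for ASP+MSG+TFA minus ASP+TFA, and no adjusted p passed the threshold.

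In single probe sets tested the same way over all 241576, 0 were called in each contrast. At an unadjusted p under 0.05 there were 2, 28 and 24 of the 116 for ASP+MSG+TFA against ASP+TFA, ASP+MSG+TFA against MSG+TFA and ASP+TFA against MSG+TFA, beside 5314, 32554 and 28276 of all probe sets.

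The 6 genes varied together over the 12 arrays to different degrees. As a description over 12 arrays that include the contrast used to choose them, Pearson's r between the genes ran from 0.55 (Inpp5d and Spred1) to 0.95 (Dapp1 and Myo1e), with a median of 0.78 over 15 pairs. After each diet's mean was taken off, r ran from -0.88 (Inpp5d and Spred1) to 0.74 (Dapp1 and Myo1e) and was below 0 for 5 pairs, so that pools high in one gene were not in general high in the others. Among 12240 genes with a diet mean above the dim limit, those closest to Ptpre in pattern were Eif4g3 (r = 0.93), Ranbp1 (0.92) and Capg (0.92), the last a protein that caps actin in macrophages. Closest to Inpp5d were Slc7a8 (0.95), an amino acid carrier, Runx1 (0.94), a factor of blood cell formation, and Litaf (0.93). Dapp1 was nearest to H2-DMa (0.97), which loads peptides onto class II molecules, then Pdgfd (0.96) and Cilp (0.96). Hvcn1 was nearest to Khsrp (0.97), Cic (0.97) and Alg2 (0.97). Myo1e was nearest to the lysosomal Pld3 (0.95), to Dapp1 (0.95) and to Pml (0.94), and Spred1 to the kinase Stk24 (0.91), the phosphatase Ptpn12 (0.90) and Gnl3 (0.90).

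Relatives and partners of the 6 genes had list medians between -0.04 and 0.74 from TFA in the 3 diets. None of them was called, as limma called 0 of all genes against TFA, where 5850 genes in ASP+MSG+TFA, 4602 in ASP+TFA and 438 in MSG+TFA were at an unadjusted p under 0.05. Of 19 other receptor-type tyrosine phosphatases, 12 averaged higher in ASP+MSG+TFA than in TFA (median difference 0.24), 9 in ASP+TFA (-0.04) and 12 in MSG+TFA (0.03), while 46.0%, 46.0% and 46.6% of all genes averaged higher, with medians of -0.05, -0.04 and -0.02. Ptpra, the closest relative of Ptpre, differed by 0.24 ± 0.13, 0.27 ± 0.13 and 0.24 ± 0.13 in these diets. On that list Ptprc (CD45, carried by all leukocytes) had the largest difference in ASP+MSG+TFA, 0.84 ± 0.36, and Ptprd, an adhesion receptor of neurons, the smallest among genes above the dim limit, -0.04 ± 0.24. The largest and smallest members named from the other lists were likewise taken among genes above it. Of 22 other phosphoinositide phosphatases 18, 17 and 15 averaged higher (median 0.23, 0.25 and 0.09). Inppl1, which encodes SHIP2, differed by 0.22 ± 0.15, 0.26 ± 0.15 and 0.22 ± 0.15, beside 1.47, 1.77 and 0.90 for Inpp5d, while Inpp5b had 0.75 ± 0.22 in ASP+MSG+TFA and Sacm1l -0.14 ± 0.13.

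Of 11 subunits and adaptors of class I PI3-kinase, the enzyme that makes PIP3, 10, 9 and 9 averaged higher (median 0.23, 0.23 and 0.27), from Pik3ap1 (BCAP, an adaptor of B cells and macrophages) at 0.81 ± 0.21 to Pik3ip1, an inhibitor of the kinase, at -0.10 ± 0.20 in ASP+MSG+TFA. Of 26 other proteins that bind PIP3 in leukocytes, 23, 22 and 20 averaged higher (median 0.32, 0.24 and 0.20). Dock2, which activates Rac in leukocytes, had 1.18 ± 0.47, Plekha1 0.56 ± 0.33 and Vav2 -0.09 ± 0.20 in ASP+MSG+TFA. Partners of SHIP1 and inhibitory receptors numbered 14, 12 and 17 of 20 above TFA (median 0.40, 0.12 and 0.19), with the inhibitory receptor Lilrb4a at 1.33 ± 0.58 and the adaptor Grb2 at -0.65 ± 0.24 in ASP+MSG+TFA. Genes of B cell receptor signalling numbered 14, 10 and 15 of 16 above TFA (median 0.74, 0.23 and 0.17), and the kinase Syk, shared with myeloid cells, had 1.24 ± 0.30, while Cd81, a partner of the B cell co-receptor found on many cells, had 0.09 ± 0.10.

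Of 13 genes of NADPH oxidases, of phagocytes and of other cells, 7, 7 and 8 averaged higher (median 0.15, 0.02 and 0.22). Those of the phagocyte oxidase (Cybb, Cyba, Ncf1, Ncf4, Rac1 and Rac2) averaged higher in each additive diet. For Rac1 the difference was only 0.02 in ASP+TFA and 0.01 in MSG+TFA. The genes lower in ASP+MSG+TFA were all Nox and Duox genes or their partners, and all under the dim limit. Cybb, the catalytic subunit of the phagocyte oxidase, had 0.89 ± 0.35, Rac2 1.70 ± 0.43 and Rac1 0.15 ± 0.11 in ASP+MSG+TFA. Of 6 other class I myosins 4, 4 and 5 averaged higher (median 0.32, 0.17 and 0.16). Myo1f, the relative of Myo1e in blood cells, had 1.90 ± 0.56 in ASP+MSG+TFA with a TFA mean of 5.93, under the dim limit, and Myo1c 0.24 ± 0.19. Of 27 other genes of Sprouty and Spred feedback 19, 20 and 19 averaged higher (median 0.18, 0.22 and 0.19). Spred2 had 0.45 ± 0.18, 0.46 ± 0.18 and 0.33 ± 0.18, Etv5, a target of this pathway, 1.56 ± 1.01 and Hras -0.78 ± 0.23 in ASP+MSG+TFA, where the TFA mean of Etv5 was 5.76, under the dim limit.

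Leukocyte markers moved with the 6 genes in ASP+MSG+TFA and less evenly in the other diets. Of 15 markers shared by leukocytes, 15 averaged higher in ASP+MSG+TFA (median 0.74), 11 in ASP+TFA (0.39) and 14 in MSG+TFA (0.53), and of 18 macrophage markers 16, 18 and 17 (0.67, 0.30 and 0.29). Of 14 markers of lipid-laden macrophages 12, 8 and 10 averaged higher (0.55, 0.05 and 0.45). The leukocyte markers summed to an intensity of 12870 to 15698 in ASP+MSG+TFA, 8093 to 12794 in ASP+TFA and 11219 to 12913 in MSG+TFA, against 8414 to 12369 in TFA. The macrophage markers summed to 19818 to 24329 in ASP+MSG+TFA, 12967 to 24334 in ASP+TFA and 11349 to 21959 in MSG+TFA, against 11527 to 16428 in TFA. By these sums both lists overlapped TFA in ASP+TFA and MSG+TFA. The 6 genes mostly did not, but they were chosen on these contrasts, so nothing is read from that difference. ASP+TFA 3 had the highest macrophage mean of all arrays, 9.69, with the lowest Inpp5d and Hvcn1 values of its diet and the highest Dapp1 and Spred1 values, while ASP+TFA 1 and 2, with macrophage means of 8.97 and 8.79, had the highest Inpp5d values of all arrays. No defining marker was listed at 0, and 14 of the 15 leukocyte and 17 of the 18 macrophage markers were above the dim limit, among them Lyz2 (lysozyme) at a mean of 11.9 and Ptprc at 8.58. How far the number of leukocytes bears on the 6 genes was not tested.

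**Figure D5:**
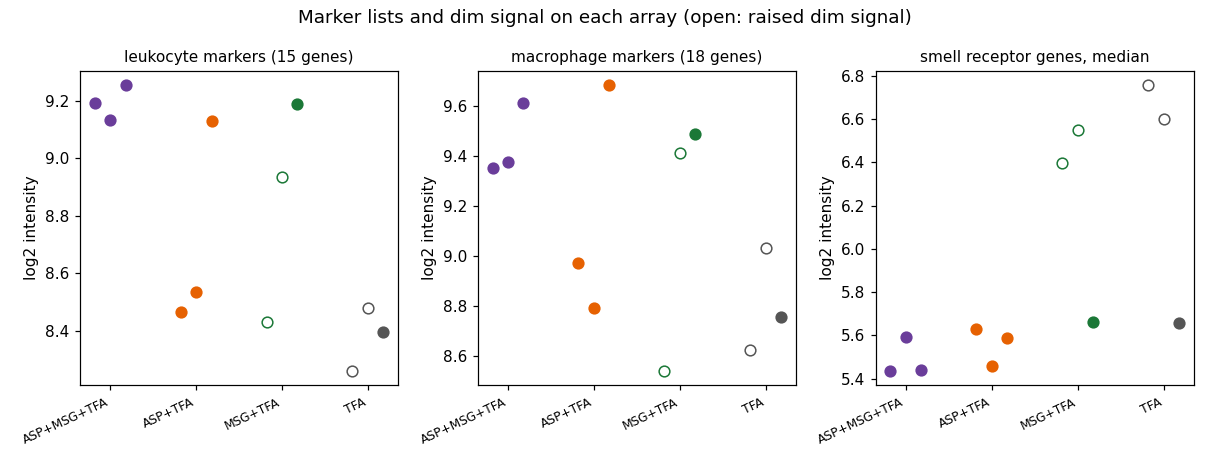
Mean log2 intensity of 15 leukocyte markers and of 18 macrophage markers, and median of the smell receptor genes, on each array by diet, with raised arrays open. All ASP+MSG+TFA arrays lie above all TFA arrays for both marker lists, while ASP+TFA and MSG+TFA arrays spread over the range.

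Markers of other leukocytes were dim. Of 13 B cell markers 4 were above the dim limit, of 17 T and NK cell markers 3, of 9 mast cell markers 4, of 9 dendritic cell markers 2 and of 11 neutrophil markers 0. B cell markers had a median difference of 0.26 in ASP+MSG+TFA, -0.15 in ASP+TFA and 0.06 in MSG+TFA, and summed to 3119 to 3257, 1938 to 2801 and 2407 to 3084, against 2420 to 2600 in TFA. The T and NK cell markers had -0.24, -0.40 and -0.07, and the neutrophil markers -0.47, -0.41 and 0.01. The adipocyte markers, all 12 above the dim limit, had medians of 0.06, 0.04 and -0.06. Markers of other cells of fat also averaged higher, with a median of 0.51, 0.27 and 0.18 for 10 endothelial and 0.48, 0.23 and 0.14 for 10 fibroblast markers. Markers of neighbouring organs differed widely between arrays, and those of the epididymis were high on most of them. The epididymis list had medians of 0.84, 1.30 and 0.11 and 7 spermatid markers -0.39, -1.71 and -1.36, while 9 exocrine pancreas markers had -2.04, -1.89 and -1.70, summing to 20609 on TFA 2 and 464.2 to 627.2 elsewhere. The 6 seminal vesicle markers had -0.33, -0.09 and -2.37, with sums of 68357 on ASP+MSG+TFA 1, 78694 on ASP+TFA 2 and 48152 on TFA 3 and of 220.8 to 613.3 elsewhere. The 6 liver markers had 1.02, -0.29 and 0.98, with sums of 17728 on ASP+MSG+TFA 1 and 8186 on MSG+TFA 3 and of 372.5 to 1701 elsewhere. Their part in the values of the 6 genes was not tested.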

How the data were processed

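The authors hybridised pooled visceral fat RNA to 12 arrays, 3 per diet, and deposited 1 table of linear intensity for 241576 probe sets, already background corrected and normalized. Partek and GCRMA are credited to the submitters' processing notes, no scanner file was used, and the median intensity of an array was 144.9 to 150.6. Groups and replicate numbers came from sample titles. Intensities were turned to log2, and probe sets were named by GEO's platform annotation with symbols updated through RefSeq (GRCm38.p6). Of the probe sets 212138 name 1 gene, 4672 several and 24766 none. A gene's value is the median of its probe sets and cannot separate transcripts. The annotation used gives no exon position, so probe sets are named by their ID.

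Tests used limma (version 3.58.1) in R 4.3.3 with 1 mean per diet over 12 arrays (8 residual and 2.73 prior degrees of freedom), moderated, two-sided, with Benjamini-Hochberg adjustment over 20358 genes. Calls needed an adjusted p under 0.05 and 1.4-fold, the limits of the methods. The procedure was tested on simulated data. Only contrasts between additive diets were tested for the 6 genes. The 6 genes, the gene lists and the markers were chosen with earlier results of these data known. Named genes were the 6 genes, the 3 genes closest to each in pattern, and from each list the largest and smallest difference in ASP+MSG+TFA above the dim limit, the closest relative, and the brightest gene of a marker list. Adipoq and Sprr1a were named after their values were seen.

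Same-numbered arrays of MSG+TFA and TFA deviated together from their diet means (r = 0.68, 0.72 and 0.54 over genes above the dim limit). They were set against each other only where this is stated, and the main fit was unpaired. The sample titles give a replicate number and no pairing. In both diets arrays 1 and 2 were raised arrays and array 2 was low in epididymis markers. Whether this or a pairing made them deviate together was not tested. The number of arrays limits precision, and p-values measure the spread between pools. Alternatives changed the summary of probe sets, the scaling, raised arrays, the block and the arrays left out. Python 3.11.15, pandas 2.3.3 and matplotlib (version 3.10.9) read sequences and drew figures.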

Additional observations from a re-analysis of the deposited data

Results flagged for a closer look

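In 3 of the 6 genes all arrays of a diet with an added additive lay on one side of the mean of the diet without it when the other additive was absent, and on the opposite side when it was present. The difference between these effects was not tested. For Inpp5d, MSG gave -0.30 on top of ASP+TFA and 0.90 on top of TFA, a difference of -1.19 on the log2 scale. For Hvcn1 the same 2 effects were -0.12 and 0.41, a difference of -0.54. For Spred1, MSG gave -0.10 on top of ASP+TFA and 0.72 on top of TFA, and ASP gave -0.05 on top of MSG+TFA and 0.77 on top of TFA, so that both comparisons differed by -0.82. The sign of the Spred1 effects on top of the other additive is unsure: it turned positive in 5 of 21 settings for MSG and 6 of 21 for ASP, for example to 0.024 and 0.30 with the mean of probe sets. Those of Inpp5d and Hvcn1 turned in 1 of 21 settings each. For Ptpre, MSG gave -0.14 on top of ASP+TFA and 0.85 on top of TFA, but its ASP+MSG+TFA arrays lay on both sides of the ASP+TFA mean. The effects on top of TFA are those on which the genes were chosen, and TFA 1 and 2 and MSG+TFA 1 and 2 were raised arrays. A choice of genes low in TFA itself favours differences below 0 between these effects, so nothing is read from their sign.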

How the results depend on the processing

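Among the recomputed differences of the 6 genes between additive diets, 350 kept their direction and their side of the threshold and 28 reversed, and none of the 6 was called under any setting. Among those from TFA, 321 moved by less than the spread, 55 moved by more and 2 reversed. Causes were not tested. By the brightest probe set, Hvcn1 was -0.16 in ASP+MSG+TFA and -0.20 in ASP+TFA against TFA, -0.32 for ASP+MSG+TFA against MSG+TFA, -0.36 for ASP+TFA against MSG+TFA and 0.031 for ASP+MSG+TFA against ASP+TFA. For the last contrast Ptpre was then 0.079 and Spred1 0.049, Spred1 was 0.14 for ASP+MSG+TFA against MSG+TFA, and the genes clear of TFA were 2 in ASP+TFA and 1 in MSG+TFA. With the mean of probe sets Spred1 was 0.024 and 0.30 for ASP+MSG+TFA against ASP+TFA and MSG+TFA. Without dim probe sets it was 0.11 and 0.17, and Inpp5d was 0.0011 for ASP+MSG+TFA against ASP+TFA. With centred arrays Ptpre was -0.011 for ASP+MSG+TFA against MSG+TFA and Spred1 -0.091 for ASP+TFA against MSG+TFA, and quantile normalization gave -0.068 there. With raised arrays as a term Dapp1 was -0.037 and Myo1e -0.11 for ASP+TFA against MSG+TFA. Without the raised arrays, which left 1 array each in MSG+TFA and TFA, they were -0.061 and -0.12, and Ptpre was -0.11 and Spred1 0.13 for ASP+MSG+TFA against MSG+TFA. Without the 4 arrays low in epididymis markers, chosen after seeing the data, Spred1 was 0.023 and 0.091 for ASP+MSG+TFA against ASP+TFA and MSG+TFA.

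Leaving out 1 array at a time gave -0.24 to 0.022 for Ptpre and -0.21 to 0.045 for Spred1 for ASP+MSG+TFA against ASP+TFA. Spred1 ran from -0.13 to 0.11 for ASP+MSG+TFA against MSG+TFA and from -0.092 to 0.22 for ASP+TFA against MSG+TFA. The other 14 differences kept their sign but not their size, as for ASP+MSG+TFA against ASP+TFA in Myo1e (0.17 to 0.57), Inpp5d (-0.53 to -0.14) and Hvcn1 (-0.24 to -0.037), and for ASP+TFA against MSG+TFA in Myo1e (0.038 to 0.45). Genes called for ASP+TFA against MSG+TFA numbered 0 to 1, the 1 being Sprr1a without TFA replicate 3 (-1.45 ± 0.15, limma adjusted p = 0.0477), named after its values were seen. The 28 MSG+TFA probe sets clear of TFA became 104 without the raised arrays, where 1 array stands against 1 and 50.9% of all probe sets pass, 54 by the rule of a 1.4-fold higher mean (5.96%), 46 without the arrays low in epididymis markers (8.23%) and 28 to 52 when 1 array was left out.

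With the replicate number as a block, 0 genes were called in each contrast between additive diets (463, 4177 and 3351 at an unadjusted p under 0.05 for ASP+MSG+TFA against ASP+TFA, ASP+MSG+TFA against MSG+TFA and ASP+TFA against MSG+TFA), and no call of the 6 genes changed. Same-numbered arrays of these diets did not regularly deviate together, with r of -0.66 to 0.70. For MSG+TFA against TFA, whose same-numbered arrays did, deviations from the mean of the block gave 46 probe sets clear of TFA. With 3 pools per diet the number of arrays limits every interval, and values near the dim limit are the least sure.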
